A study of Homo sapiens with 5 samples.

Results

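The 37 genes described here belong to the amino acid response that the transcription factor ATF4 drives, or to the charging and export of transfer RNA. They are a part of these sets, and further targets and synthetases are described below. They were chosen by name, as genes known for this response, and every probe set annotated to one of them was taken. Earlier results of these data were known when the choice was made. Of the 37, 36 had at least 1 probe set of their own, 71 probe sets in all, and a further 4 probe sets were shared with other genes, out of 54675 probe sets on the array and 19777 genes with a probe set of their own. MARS1, which charges methionine, had none, since its 3 probe sets are also listed for the microRNA gene MIR6758. All 36 passed the filter on dim genes.

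The RNA came from MHH-ES-1, a long-established cell line from a human Ewing sarcoma, and was measured on 5 Affymetrix 3' expression arrays. Cells had been transfected by lipid reagent with a microRNA mimic at 50 nM and were harvested after 48 h. A mimic is a synthetic RNA duplex that raises the level of 1 microRNA in the cell. The groups were miR-483-5p (2 arrays), miR-483-3p (1 array) and a scrambled control mimic (2 arrays), and all 5 arrays therefore came from transfected cells of 1 line. The labels name the later array of each pair as a repeat without saying whether it was a separate culture, so p-values measure the spread of these arrays alone, and it may be technical. No measurement of either microRNA came with the arrays.

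ATF4 is a transcription factor whose messenger RNA is translated more when the initiation factor eIF2 is phosphorylated by 1 of the stress kinases, among them GCN2, which senses uncharged transfer RNA. Its protein then activates genes that make, import and charge amino acids, and it does so together with C/EBP family partners at a composite promoter element. Much of that control is on translation, so the ATF4 messenger RNA level and the level of its protein need not run together, and arrays measure the messenger RNA alone.

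The element that binds ATF4 with a C/EBP partner has the core TGATGNAA, where N is any base. This core was searched on both strands of the RefSeq promoter windows of build GRCh38.p14, each 300 bases long, with 250 bases before the transcription start and 50 from it on. It was present in 13 of 31 members that have a window (41.9%), against 1217 of 27305 genes in all (4.46%). Per window, the shares were 13 of 51 (25.5%) for members and 1270 of 35116 (3.62%) for all genes. Members were chosen as genes known for this response, so this share describes the choice of genes. Transporters held it in 4 of 5 genes, the charging and export group in 4 of 8, transcription factors in 2 of 7, secreted and other targets in 2 of 4, amino acid enzymes outside the serine pathway in 1 of 4 and serine and one-carbon genes in 0 of 3. A match is a run of letters and not a measured binding site. An example from each role group that holds a match, and a second among the secreted and other targets, is given here. Each is written in the direction of transcription, with the core in capitals. In SLC1A5, ASNS and CEBPG the core reads on the strand shown, and in CHAC1, FGF21 and AARS1 it lies on the opposite strand, so that its complement is in capitals.
ASNS, chr7:97872443-97872502, minus strand, core at -68 from the start: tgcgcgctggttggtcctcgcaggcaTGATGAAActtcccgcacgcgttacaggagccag
SLC1A5, chr19:46784878-46784937, minus strand, core at -97: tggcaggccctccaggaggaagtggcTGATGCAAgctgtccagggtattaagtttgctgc
CEBPG, chr19:33374045-33374104, plus strand, core at -42: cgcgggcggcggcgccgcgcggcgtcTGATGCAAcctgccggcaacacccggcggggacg
CHAC1, chr15:40953236-40953295, plus strand, core at -209: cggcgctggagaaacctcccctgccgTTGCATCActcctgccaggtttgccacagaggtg
FGF21, chr19:48755444-48755503, plus strand, core at -54: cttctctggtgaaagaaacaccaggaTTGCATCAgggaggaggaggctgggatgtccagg
AARS1, chr16:70289660-70289719, minus strand, core at -187: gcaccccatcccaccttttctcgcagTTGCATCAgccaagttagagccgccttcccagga

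Signals are the deposited linear probe set intensities, which have 1 common trimmed mean over the arrays. Median signals ran from 39.2 to 44.9 over the 5 arrays, and pairs of arrays correlated at 0.977 to 0.983 across genes, which are not independent replicates. All 7 Ewing sarcoma markers examined (CD99, NKX2-2, STEAP1, PRKCB, BCL11B, FLI1 and EWSR1) passed the filter on dim genes. Their summed signal was 13587 and 14309 with miR-483-5p, 13454 with miR-483-3p and 14019 and 14758 in controls. Single markers lay on both sides, with EWSR1 above and STEAP1 below both controls in every mimic array. Of the blood, epithelial and endothelial markers, HBB and PECAM1 passed the filter, and PTPRC, EPCAM and VWF did not. The 4 blood markers with a probe set summed to 173 and 256 with miR-483-5p, 139 with miR-483-3p and 146 and 162 in controls, the 4 epithelial ones to between 35.2 and 77.1 and the 3 endothelial ones to between 168 and 200 over all arrays. Their part in the results was not tested. The GAPDH 3' to 5' ratio, which reflects RNA integrity, was 1.09 and 1.10 with miR-483-5p, 1.06 with miR-483-3p and 1.02 and 0.996 in controls, so it separated the same groups as the differences below, and its part in them was not tested. Differences are mimic minus control of log2(signal + 32), a scale that makes changes of dim genes look smaller than they are, from limma with Benjamini-Hochberg adjustment over 14592 genes. Precision is limited throughout by the number of arrays, and in RNA of whole cultures, fewer cells that express a gene and less RNA per cell cannot be told apart.

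None of the members passed an adjusted p of 0.05 with either mimic, where 0% of all genes did. The enzymes PSAT1 (serine) and ASNS (asparagine) had higher signals in all 3 mimic arrays than in either control, and so did EPRS1 among the synthetases. WARS1 and the carrier gene SLC7A5 were below both controls in all 3, and the serine enzymes PHGDH and PSPH overlapped the controls with miR-483-5p. These are values of the brightest probe sets. The other probe sets of EPRS1 and WARS1 lay on the opposite side of the control with both mimics. With miR-483-5p, 25 of 36 members were above the control, where 48.5% of all genes were, and the median difference was 0.16, against -0.0084 over all genes. In 15 members (41.7%, against 20.3% of all genes) the lower miR-483-5p array exceeded the higher control, and in 5 (13.9%, against 22.2%) the reverse held. At an unadjusted p under 0.05 there were 5 members higher, namely PSAT1, ASNS, CTH, CEBPG and NUPR1, where 5.3% of all genes were, and 1 lower, SLC7A5, where 5.41% were. Together these are 16.7% of members, against 10.7% of all genes. The first miR-483-5p array set much of the median, which was 0.057 without it. With the mean of each gene's probe sets, 21 of 36 members were above the control. Leaving out the second control array brought the miR-483-5p difference down to 0.21 in ALDH1L2 and 0.16 in SLC7A1. It was 0.24 in CEBPG once the first array of the miR-483-5p pair was left out and 0.10 in STC2 once the second was, and other such values stand beside their genes. With the single miR-483-3p array, 28 of 36 members were above the control mean, where 49.8% of all genes were, with a median of 0.066 against -0.0013 over all genes. This array lay above both controls in 18 members (50%, against 33.4% of all genes) and below both in 5 (13.9%, against 35.4%). ATF5, which was higher, had an unadjusted p under 0.05 there (2.78% of members, against 6.56% of all genes in both directions and 2.51% higher). Without the second control array the miR-483-3p median was 0.17, and without the first 21 of 36 members were higher and 15 lower. Both comparisons use the same 2 control arrays, so they are not independent of each other.

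**Figure D1:**
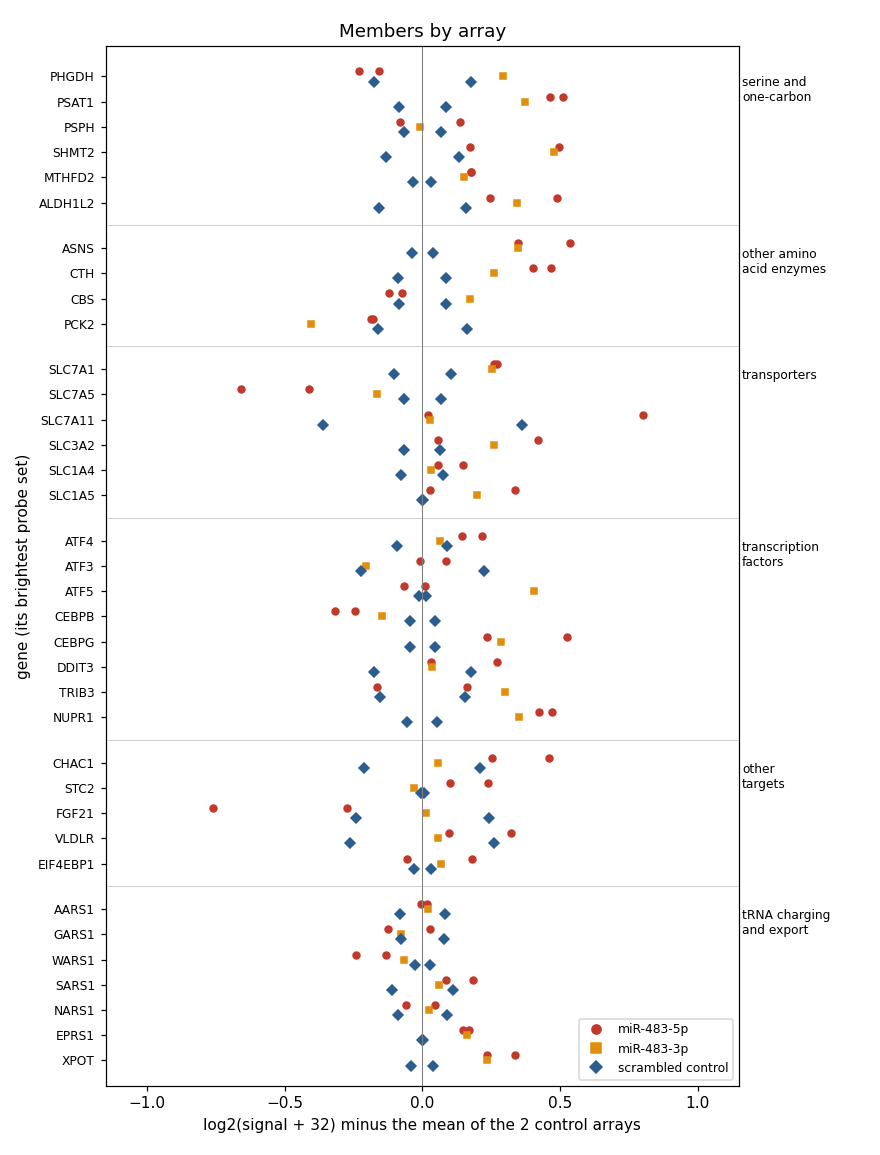
Each point is 1 array for the brightest probe set of 1 member, as log2(signal + 32) minus the mean of the 2 control arrays, with miR-483-5p as red circles, miR-483-3p as orange squares and the scrambled control as blue diamonds. In PSAT1, ASNS, CTH and NUPR1 the 3 mimic arrays all lie to the right of both controls, and in SLC7A5 and CEBPB all 3 lie to the left.

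Serine synthesis starts from a glycolytic intermediate, and its carbon passes on to the folate pool. Of the 6 members of this group, 5 were above the control with miR-483-5p, at a group median of 0.25, and 5 with miR-483-3p, at 0.32. PSAT1, the aminotransferase of the second step, had signals of 3927 and 3808 with miR-483-5p, 3574 with miR-483-3p and 2592 and 2920 in controls. All 3 mimic arrays were above both controls, and the differences were 0.49 (SE 0.14, limma adjusted p = 0.371) for miR-483-5p and 0.37 (SE 0.18, adjusted p = 0.813) for miR-483-3p. Its other probe set gave 0.36 and 0.38. SHMT2, which passes the serine carbon to folate in mitochondria, had 1712 and 1360 with miR-483-5p, 1690 with miR-483-3p and 1096 and 1323 in controls. The second miR-483-5p array lay only just above the higher control. The SHMT2 differences were 0.33 (SE 0.18, adjusted p = 0.554) and 0.48 (SE 0.22, adjusted p = 0.798), the value for miR-483-5p was 0.17 once its first array was left out, and its 3 probe sets ranged from 0.33 to 0.55 and from 0.40 to 0.48. The mitochondrial formyltetrahydrofolate dehydrogenase gene ALDH1L2 had 217 and 178 with miR-483-5p, 194 with miR-483-3p and 166 and 127 in controls. Its arrays did not overlap either (0.37 and 0.34, adjusted p = 0.512 and 0.885), although its dimmer probe sets reached -0.19 and -0.22. With a term for first arrays against repeats, its unadjusted p in limma for miR-483-5p was 0.0329, against 0.0723 without that term, and the adjusted p was 0.317. That term put 2003 of 14592 genes at an unadjusted p under 0.05, against 1563 without it.

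The other members of the pathway stood apart from these 3. PHGDH, the enzyme of the first step, was singled out after its values were seen, and had 2296 and 2419 with miR-483-5p, 3320 with miR-483-3p and 2387 and 3058 in controls. Its miR-483-5p arrays overlapped the lower control and its miR-483-3p array was the highest of the 5, and the differences from the control were -0.19 (SE 0.17) and 0.29 (SE 0.20). PSPH, the phosphatase that releases serine, gave 0.027 and -0.0087. MTHFD2, the mitochondrial folate dehydrogenase and cyclohydrolase, was slightly above both controls in all 3 mimic arrays in its bright probe set, by 0.18 and 0.15. Its dimmer probe set ran the other way, at 166 and 239 with miR-483-5p, 184 with miR-483-3p and 314 and 331 in controls. That gave -0.62 and -0.71, the lowest values among the probe sets of all members in both comparisons, with adjusted p = 0.542 and 0.818 over all probe sets. The 2 probe sets of this gene thus lay on opposite sides of the control. The dimmer one carries the suffix x, which marks probes that can also match other sequences, and whether this bears on its values was not tested. Median and direction for the group thus rest on the bright probe sets, and with the mean of each gene's probe sets the miR-483-5p median was 0.043.

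Among the other amino acid enzymes, ASNS and CTH were higher and PCK2 lower in all 3 mimic arrays. Asparagine synthetase, the product of ASNS and a standard readout of ATF4 activity, had signals of 1250 and 1091 with miR-483-5p, 1091 with miR-483-3p and 828 and 876 in controls. The lowest mimic array was well clear of the highest control, with differences of 0.44 (SE 0.15, adjusted p = 0.402) and 0.35 (SE 0.18, adjusted p = 0.840). This is the gene whose promoter holds the core at -68, shown above. CTH, which makes cysteine from cystathionine, had 238 and 227 with miR-483-5p, 202 with miR-483-3p and 176 and 152 in controls, or 0.43 (SE 0.14, adjusted p = 0.403) and 0.26 (SE 0.18, adjusted p = 0.889). A second CTH probe set gave 0.23 and 0.17. PCK2, the mitochondrial phosphoenolpyruvate carboxykinase, had 263 and 261 with miR-483-5p, 221 with miR-483-3p and 267 and 342 in controls. All 3 mimic arrays were under both controls, but the first control array was close to the miR-483-5p arrays, and the differences were -0.18 and -0.40 (adjusted p = 0.719 and 0.824). Without the second control array they were -0.021 and -0.24. CBS, the enzyme before CTH, gave -0.10 and 0.17.

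**Figure D2:**
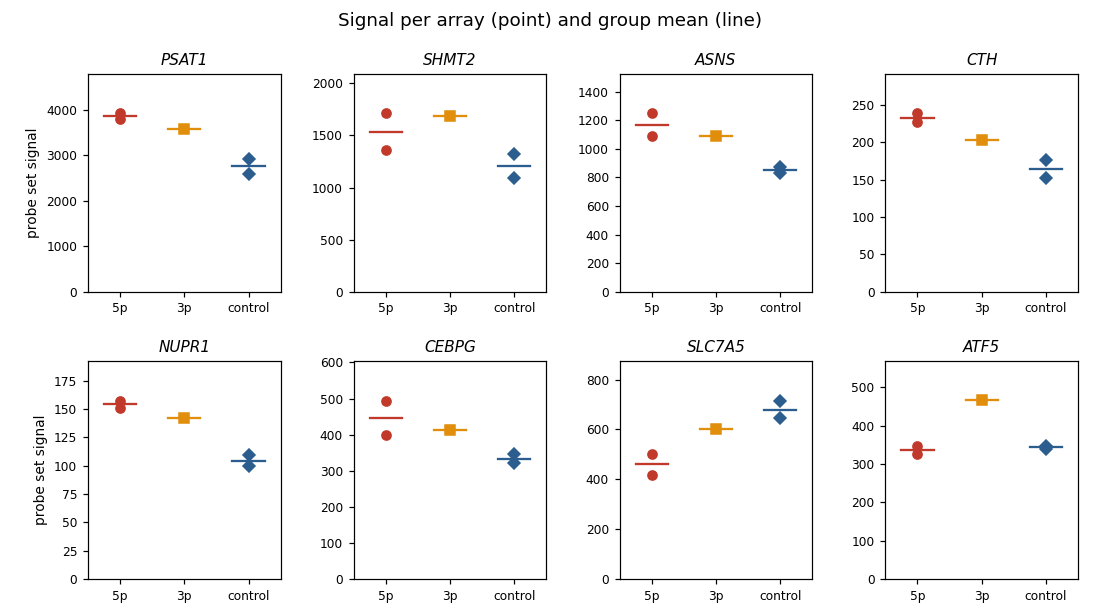
Probe set signal on a linear axis from 0 for 8 members, with 1 point per array and a line at the group mean, for miR-483-5p (2 arrays), miR-483-3p (1 array) and the scrambled control (2 arrays). PSAT1, SHMT2, ASNS, CTH, NUPR1 and CEBPG are lowest in the control, SLC7A5 is highest there, and ATF5 stands out in the miR-483-3p array at 467.

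Transporters lay on both sides of the control. SLC7A5, the light chain of the LAT1 exchanger for large neutral amino acids, had 503 and 419 with miR-483-5p, 602 with miR-483-3p and 713 and 647 in controls. It had the lowest unadjusted p of all members with miR-483-5p (0.0110, adjusted p = 0.360), at a difference of -0.53 (SE 0.16), and was lower by a smaller amount with miR-483-3p (-0.16, SE 0.19, adjusted p = 0.944). SLC3A2, the heavy chain that pairs with SLC7A5, had 682 and 523 with miR-483-5p, 607 with miR-483-3p and 526 and 478 in controls. It overlapped the controls with miR-483-5p, and its differences were 0.24 and 0.26 (adjusted p = 0.659 and 0.905), with 0.057 for miR-483-5p once its first array was left out. The arginine and lysine transporter gene SLC7A1 had 531 and 526 with miR-483-5p, 523 with miR-483-3p and 469 and 401 in controls. All 3 mimic arrays were above both controls in this probe set, at 0.27 (adjusted p = 0.566) and 0.25 (adjusted p = 0.898), while its 3 dimmer probe sets spread from -0.30 to 0.093 with miR-483-5p.

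SLC1A5, the glutamine carrier, had 1549 and 1243 with miR-483-5p, 1404 with miR-483-3p and 1218 and 1222 in controls. The higher of the miR-483-5p arrays made most of that difference, 0.18, which was 0.027 without it. SLC1A4, a neutral amino acid exchanger, differed by 0.10 and 0.032. SLC7A11, the cystine importer, was singled out after its values were seen, because first and repeat arrays differed more than the groups did. Its brightest probe set had 1671 and 961 with miR-483-5p, 966 with miR-483-3p and 1225 and 729 in controls, so that the first array of each pair was the higher. Another probe set gave 0.40 and 0.24. The dimmest gave -0.21 and -0.30, and there the first array of each pair was the lower, by little in the controls. The brightest SLC7A11 probe set differed from the control by 0.41 with miR-483-5p (SE 0.32, limma unadjusted p = 0.235, adjusted p = 0.684). With a term for first arrays against repeats the SE was 0.14, the unadjusted p 0.0204 and the adjusted p 0.283. The gene was picked for the gap which that term removes, so the smaller SE and p follow from the choice. With the term, 2003 of 14592 genes were at an unadjusted p under 0.05, against 1563 without it.

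ATF4 itself had the signals 4123 and 3914 with miR-483-5p, 3702 with miR-483-3p and 3323 and 3775 in controls. Both miR-483-5p arrays were above both controls, by 0.18 on average (SE 0.15, adjusted p = 0.697) and by 0.089 once the first control array was left out, and the miR-483-3p array lay between the controls (0.063). Its partners in DNA binding differed from each other. CEBPG, which pairs with ATF4 and whose promoter holds the core at -42, had 494 and 398 with miR-483-5p, 413 with miR-483-3p and 322 and 345 in controls. Every mimic array was above both controls (0.38, SE 0.16, adjusted p = 0.462, and 0.28, SE 0.19, adjusted p = 0.889), and a second probe set gave 0.26 and -0.020. CEBPB, another C/EBP factor, had 1662 and 1582 with miR-483-5p, 1785 with miR-483-3p and 1914 and 2043 in controls. Here every mimic array was below both controls, by -0.28 (SE 0.14, adjusted p = 0.531) and -0.14 (SE 0.17, adjusted p = 0.944).

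NUPR1, a small stress-induced chromatin protein, had 151 and 157 with miR-483-5p, 142 with miR-483-3p and 110 and 99.3 in controls. All 3 mimic arrays were clear of the controls, at 0.45 (SE 0.14, adjusted p = 0.383) and 0.35 (SE 0.17, adjusted p = 0.822). ATF5, a related factor that is itself under translational control, had 347 and 327 with miR-483-5p, 467 with miR-483-3p and 348 and 341 in controls. The miR-483-3p array stood apart, at 0.41 (SE 0.17, unadjusted p = 0.0471, adjusted p = 0.753), against -0.029 with miR-483-5p. The 3 dimmer ATF5 probe sets gave -0.11 to 0.033 with miR-483-3p and -0.37 to -0.33 with miR-483-5p. TRIB3, the pseudokinase that inhibits ATF4, had 406 and 317 with miR-483-5p, 450 with miR-483-3p and 403 and 320 in controls. Its miR-483-5p and control arrays were nearly the same, first against first and repeat against repeat, and the miR-483-3p array was the highest (0.30, SE 0.22, adjusted p = 0.905), with -0.086 in its other probe set. DDIT3, which encodes the stress factor CHOP, had 281 and 233 with miR-483-5p, 234 with miR-483-3p and 198 and 261 in controls, which overlap (0.15 and 0.036, adjusted p = 0.799 and 0.994). ATF3, a stress-induced repressor and activator, overlapped as well in its brightest probe set, at 0.039 and -0.20. Its 2 dimmer probe sets did not overlap the controls with miR-483-5p and lay on opposite sides of them, at 0.18 and -0.22. With miR-483-3p these gave -0.056 and -0.033.

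**Figure D3:**
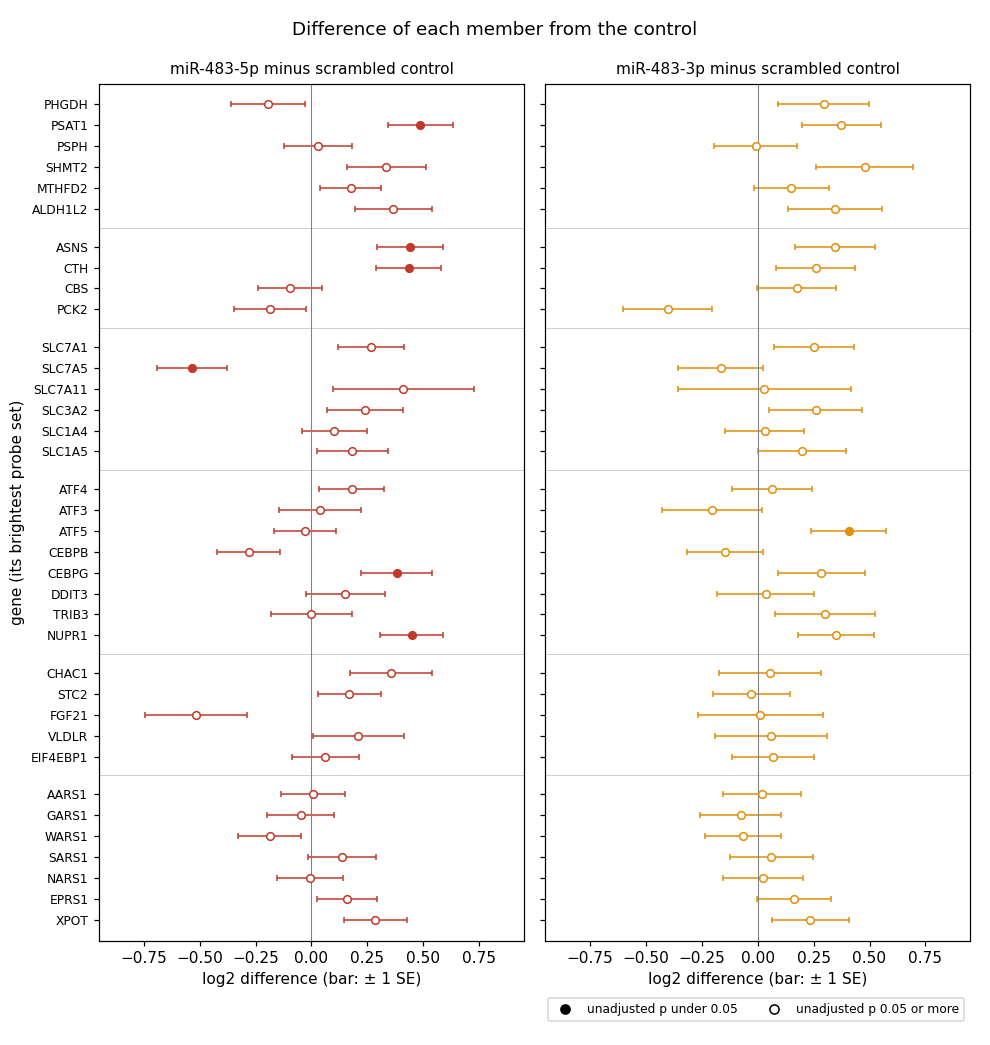
Difference of each member from the scrambled control on the log2(signal + 32) scale, with bars of 1 SE from limma, for miR-483-5p (left) and miR-483-3p (right), with filled points at an unadjusted p under 0.05. Filled points are PSAT1, ASNS, CTH, SLC7A5, CEBPG and NUPR1 on the left and ATF5 on the right, and no member passed after adjustment over all genes.

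Secreted and other targets were mixed, and most were dim. CHAC1, which degrades glutathione and answers early to ATF4, had 183 and 155 with miR-483-5p, 131 with miR-483-3p and 104 and 150 in controls. Both miR-483-5p arrays were above the controls, the second by little (0.36, SE 0.19, adjusted p = 0.550), and the miR-483-3p array lay between them (0.056). Once the first control array was left out, the miR-483-5p difference of CHAC1 was 0.14. STC2, a secreted glycoprotein, had 133 and 150 with miR-483-5p, 119 with miR-483-3p and 123 and 121 in controls, or 0.17 and -0.029. Its dimmer probe set, singled out after its values were seen, had 57.9 and 52 with miR-483-5p, 23.2 with miR-483-3p and 41.6 and 37.7 in controls. There the mimics lay on opposite sides of the controls, at 0.28 and -0.38, and differed from each other by 0.66 (SE 0.19, unadjusted p = 0.0106, adjusted p = 0.785 over all probe sets). The hormone gene FGF21 had 27.5 and 10.4 with miR-483-5p, 40.5 with miR-483-3p and 28.8 and 53 in controls. These signals lie around 27.2, the filter's level, and how far they are above background is unknown. The difference of -0.52 (SE 0.23, adjusted p = 0.486) for miR-483-5p was -0.27 without the second miR-483-5p array and -0.28 without the second control. VLDLR, a lipoprotein receptor, was also dim, at 37.9 and 49.7 with miR-483-5p, 36 with miR-483-3p and 22.5 and 46.3 in controls, and its groups overlapped (0.21 and 0.058). EIF4EBP1, the translation repressor 4E-BP1, had 2454 and 2080 with miR-483-5p, 2268 with miR-483-3p and 2117 and 2209 in controls, a difference of 0.062 and 0.068.

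Of the 7 charging and export genes tested, 4 were above the control with miR-483-5p and 5 with miR-483-3p, at medians of 0.0064 and 0.024. Without the first control array these medians were -0.075 and -0.051. XPOT, which exports transfer RNA from the nucleus and charges nothing, had 2923 and 2724 with miR-483-5p, 2724 with miR-483-3p and 2377 and 2247 in controls. Its 3 mimic arrays were above both controls at 0.28 (SE 0.14, adjusted p = 0.529) and 0.23 (SE 0.17, adjusted p = 0.905), and the other XPOT probe set gave 0.28 and 0.24. EPRS1, which charges glutamate and proline, had 1263 and 1242 with miR-483-5p, 1255 with miR-483-3p and 1119 and 1117 in controls. It was 0.16 above the control with either mimic in that probe set, whereas its 2 dimmer probe sets lay below, down to -0.36 and -0.12. WARS1, which charges tryptophan and is also induced by interferon, had 325 and 299 with miR-483-5p, 342 with miR-483-3p and 367 and 353 in controls, or -0.19 and -0.065 (adjusted p = 0.676 and 0.986), with a second probe set at 0.057 and 0.13. GARS1, for glycine, had 2438 and 2189 with miR-483-5p, 2266 with miR-483-3p and 2264 and 2526 in controls and overlapped them (-0.049 and -0.077). AARS1 (alanine), NARS1 (asparagine) and SARS1 (serine) overlapped the control as well, with differences between -0.0059 and 0.14 with miR-483-5p and between 0.020 and 0.061 with miR-483-3p. The dimmer SARS1 probe set, singled out after its values were seen, had 214 and 221 with miR-483-5p, 192 with miR-483-3p and 160 and 166 in controls. Its mimic arrays were all above both controls, at 0.35 (SE 0.15, unadjusted p = 0.0505, adjusted p = 0.601 over all probe sets) and 0.20. The 2 brighter probe sets shared by MARS1 and MIR6758 gave 0.066 and 0.12 with miR-483-5p and 0.028 and 0.033 with miR-483-3p. The dimmest MARS1 one had 200 and 167 with miR-483-5p, 115 with miR-483-3p and 148 and 47.9 in controls, or 0.84 (unadjusted p = 0.0533) and 0.29, with the second control array far under the other arrays. The probe set shared by PHGDH, MZT2A and MZT2B gave -0.058 and 0.020.

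Set side by side, the role groups had miR-483-5p medians of 0.25 for serine and one-carbon genes, 0.21 for transporters, 0.17 each for the other enzymes and for the secreted and other targets, 0.096 for transcription factors and 0.0064 for charging and export. In the miR-483-3p array the medians were 0.32 for serine and one-carbon genes, 0.12 for transporters, 0.22 for the other enzymes, 0.056 for the secreted and other targets, 0.17 for transcription factors and 0.024 for charging and export. The differences between role groups were not tested. These medians and the array values below take the brightest probe set of each gene. With the mean of each gene's probe sets, the miR-483-5p median of serine and one-carbon genes was far lower, as given above. Their place in this order depends on that choice. In single arrays, serine and one-carbon genes were at 0.33 and 0.17 with miR-483-5p and 0.32 with miR-483-3p, relative to the control mean, while the controls were at -0.059 and 0.059, so the groups did not overlap. The transporters were at 0.30 and 0.042 with miR-483-5p, 0.12 with miR-483-3p and 0.066 and -0.066 in controls, so the second miR-483-5p array lay within the controls. With the first array of the miR-483-5p pair left out the transporter median was 0.042, and without the first control array that of the secreted and other targets was 0.032 with miR-483-5p and -0.16 with miR-483-3p. Of the members tested whose promoter window holds the core, 9 of 12 were above the control with miR-483-5p and 10 with miR-483-3p, at medians of 0.14 and 0.044. Of those whose window lacks it, 10 of 18 and 13 were above, at 0.14 and 0.11. The 6 members with no window in the table had 6 and 5 above, at 0.35 and 0.21, and these groups were not tested against each other.

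**Figure D4:**
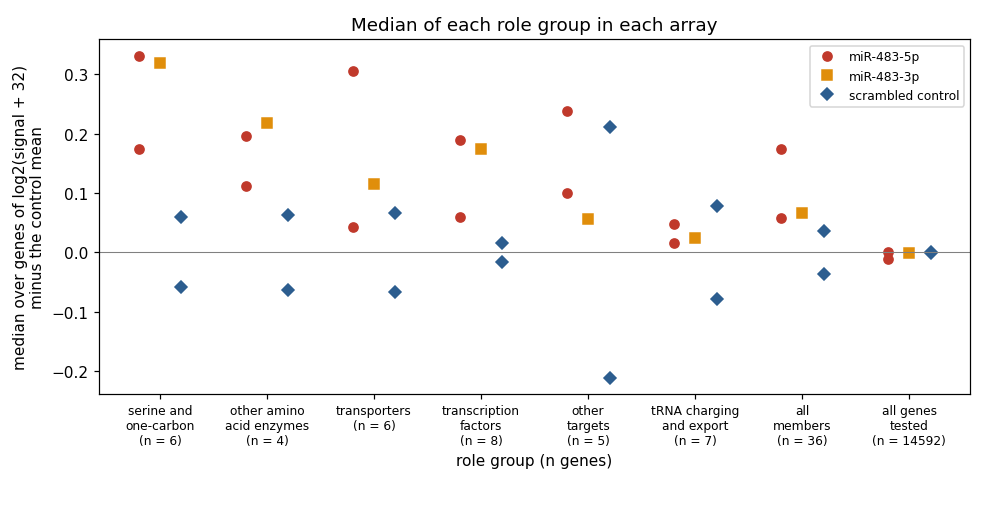
Median over the genes of each role group of log2(signal + 32) minus the control mean, in each array (miR-483-5p red circles, miR-483-3p orange squares, scrambled control blue diamonds), with the number of genes tested. Serine and one-carbon genes, the other amino acid enzymes and the transcription factors have all 3 mimic arrays above both controls, while charging and export genes have them between the controls. Each gene is taken by its brightest probe set.

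Compared directly, none of the members separated the arms after adjustment. Of 36 members, 21 were higher and 15 lower with miR-483-5p than with the single miR-483-3p array, where 50.2% of all genes were higher, and the median difference was 0.027. Leaving out the first array of the miR-483-5p pair made it -0.012, and leaving out the second made it 0.11. After adjustment 0% of all genes passed, and 2 members, PHGDH and ATF5, had an unadjusted p under 0.05 (5.56%, against 6.64% of all genes). Both were lower with miR-483-5p, where 3.23% of all genes were at that p, ATF5 by -0.43 (SE 0.17, unadjusted p = 0.0367, adjusted p = 0.716) and PHGDH by -0.49 (SE 0.20, unadjusted p = 0.0482, adjusted p = 0.749), from the values above. FGF21 differed by -0.53, SLC7A5 by -0.37 and TRIB3 by -0.30 (adjusted p = 0.793, 0.792 and 0.856). SLC7A11 was higher with miR-483-5p than with miR-483-3p by 0.38 and CHAC1 by 0.30 (adjusted p = 0.906 and 0.860). For PSAT1, ASNS, CTH, CEBPG and NUPR1 the arms differed by 0.096 to 0.17, each less than its SE.

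Agreement between probe sets of the same gene was checked in the 19 members with 2 or more of them tested. All probe sets of a gene lay on the same side of the control in 11 of these with miR-483-5p and in 9 with miR-483-3p. In PSAT1, SHMT2, CTH, SARS1 and XPOT all were above the control with both mimics. Tested one by one, 42 of 67 member probe sets were higher with miR-483-5p, where 46.8% of all probe sets were. At an unadjusted p under 0.05 there were 5 higher, where 4.06% of all probe sets were, and 2 lower, that of SLC7A5 and the dimmer one of MTHFD2, where 4.27% were. The dimmest SHMT2 probe set was among the 5, at 388 and 343 with miR-483-5p, 325 with miR-483-3p and 216 and 263 in controls. Probe sets of PSPH, ASNS, CBS and SLC7A1 that were under the filter, 1 of each gene, were not tested.

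**Figure D5:**
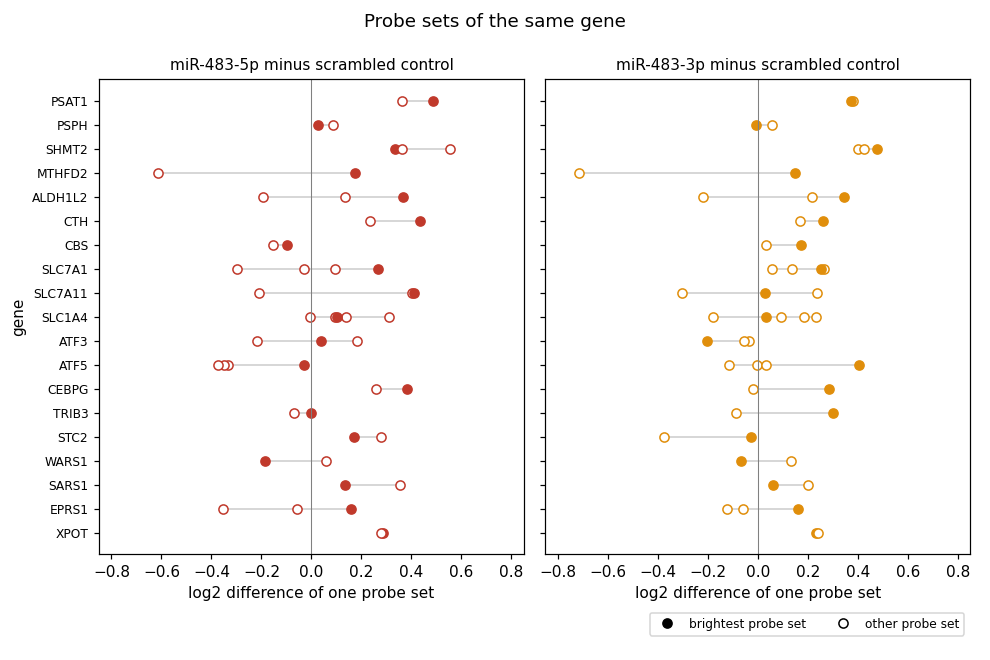
Log2 difference from the scrambled control of each tested probe set for the 19 members with 2 or more, for miR-483-5p (left) and miR-483-3p (right), with the brightest probe set filled and the others open. The probe sets of PSAT1, SHMT2 and XPOT lie close together, and those of MTHFD2 lie on opposite sides of 0.

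Genes around the members gave the following. Of 8 genes for the eIF2 kinases, the GCN2 activator GCN1, eIF2 alpha and its phosphatase subunits, 5 were higher and 3 lower with miR-483-5p, at a median of 0.040, and 3 were higher with miR-483-3p, at -0.058. PPP1R15A, the inducible phosphatase subunit GADD34 that ends the response, had 370 and 327 with miR-483-5p, 285 with miR-483-3p and 264 and 267 in controls. All 3 mimic arrays were above both controls, at 0.35 (unadjusted p = 0.0427, adjusted p = 0.447) for miR-483-5p. GCN1 had 327 and 287 with miR-483-5p, 316 with miR-483-3p and 384 and 360 in controls, or -0.26 and -0.21 (adjusted p = 0.578 and 0.910).

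By sign, other reported ATF4 targets were split evenly with miR-483-5p, with 10 of the 20 tested higher and 10 lower (median 0.010). With miR-483-3p 12 were higher (median 0.043). Both miR-483-5p arrays exceeded both controls in 6 (30%, against 20.3% of all genes) and fell below both in 2 (10%, against 22.2%). For the miR-483-3p array these were 10 (50%, against 33.4%) and 2 (10%, against 35.4%). NIBAN1, a stress-induced gene, was higher at 1297 and 1275 with miR-483-5p, 1157 with miR-483-3p and 999 and 1022 in controls (0.34, unadjusted p = 0.0423, adjusted p = 0.447, for miR-483-5p). SLC7A3, a further arginine and lysine carrier, was lower at 47.3 and 50.1 with miR-483-5p, 45.5 with miR-483-3p and 72.9 and 66.1 in controls (-0.33 and -0.39, adjusted p = 0.465 and 0.783). Of 12 cytosolic synthetase genes and complex partners outside the members, 9 were higher with either mimic, at medians of 0.099 and 0.065, and none had an unadjusted p under 0.05. CARS1, TARS1, LARS1, IARS1 and YARS1 are on both of these lists. Mitochondrial synthetases had 7 of 14 higher with miR-483-5p and 8 with miR-483-3p. PARS2 and VARS2, for proline and valine, differed from the control by -0.67 and 0.45 with miR-483-5p (adjusted p = 0.337 and 0.409), and SARS2, for serine, by 0.52 with miR-483-3p (adjusted p = 0.676).

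Folate and glycine enzymes outside the members had 4 of 9 higher with miR-483-5p, at a median of -0.059, and 6 with miR-483-3p, at 0.029. At an unadjusted p under 0.05 in limma, 2 were lower and 0 higher with miR-483-5p (22.2%, against 10.7% of all genes). MTHFD2L, the isoenzyme of MTHFD2, had 43.6 and 55.7 with miR-483-5p, 83.3 with miR-483-3p and 80.1 and 82.2 in controls (-0.47 for miR-483-5p, unadjusted p = 0.0149, adjusted p = 0.383). GLDC had 35.3 and 24.7 with miR-483-5p, 44.9 with miR-483-3p and 77.9 and 48.3 in controls (-0.60 for miR-483-5p, unadjusted p = 0.0170, adjusted p = 0.393). Chaperones and other targets of the IRE1 and ATF6 arms of the unfolded protein response had 11 of 14 higher with miR-483-5p, at a median of 0.061, and 7 with miR-483-3p, at 0.020, and none had an unadjusted p under 0.05. In single arrays their medians were -0.053 and 0.22 with miR-483-5p, 0.020 with miR-483-3p and -0.18 and 0.18 in controls. The groups thus overlapped, and first and repeat arrays lay further apart than the groups did. None of these genes passed after adjustment.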

How the data were processed

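The members and gene lists were chosen with earlier results of these data known. The authors deposited 1 linear signal intensity for each probe set and array. Per the submitters' processing notes GCOS and Partek were used, while how they computed the signal was not given in the sources used here. With 2% of the deposited intensity values trimmed at either end, every array averages 150.02, and no detection calls came with them. The 62 control probe sets were left out. Groups came from the treatment labels. Probe sets were named from the platform annotation and updated through the gene identifier to RefSeq symbols (GRCh38.p14), which matched 41037 of 41091 probe sets with 1 symbol, while 1801 had several and 11721 none.

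A gene's probe set was the one of highest mean log2 value. A filter at the 40th percentile of probe sets (signal 27.2) left 14592 genes. On log2(signal + 32), limma 3.58.1 (R 4.3.3) fitted group means to all 5 arrays, with 2 residual and 5.0 prior degrees of freedom, two-sided. The single miR-483-3p array is assumed to vary like the other groups. In simulations of the miR-483-5p comparison that altered 200 of 14592 genes, 58.1% of 2-fold and 98.5% of 4-fold alterations were recovered, and false calls averaged 9.25. Array values are given for members among the 3 lowest p-values of their role group with either mimic, and for ATF4, ASNS, DDIT3 and TRIB3. They are also given for PHGDH, SLC7A11 and single dimmer probe sets (MTHFD2, SHMT2, STC2, SARS1, MARS1), which were chosen after their values were seen. Named neighbours are among the 2 lowest p-values of their list. Alternatives were median centring, quantile normalization, other filters and pseudocounts, other uses of probe sets, a variance trend, a replicate block, leaving out each paired array and other call thresholds. Figures were drawn with matplotlib 3.10.9.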

Additional observations from a re-analysis of the deposited data

How the results depend on the processing

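No member passed an adjusted p of 0.05 in any of the 3 comparisons under any alternative run, and the lowest adjusted p of a member was 0.0929, for SLC7A5 with a variance trend. Over all genes, 0 passed for miR-483-5p against the control, whereas 37 did with median centring, 33 with a pseudocount of 100, 39 with a variance trend and 1 with the stricter filter. For miR-483-3p against the control these were 0, against 2 with centring, 1 with a pseudocount of 100 and 1 with the trend, and between the arms 0, against 7 with centring. None of these genes was a member. Members at an unadjusted p under 0.05 in limma were 6 for miR-483-5p and 1 for miR-483-3p against the control, and 2 between the arms. All genes at that p numbered 1563, 957 and 969 of 14592. With a variance trend the members were 9, 5 and 3, where 1864, 967 and 997 genes were. A pseudocount of 1 gave 4 members higher and 1 lower for miR-483-5p, where 1350 of 14595 genes were. Median centring gave 0 members in the other 2 comparisons, where 937 and 967 genes were. The members' median for miR-483-5p against the control was 0.082 with the mean of each gene's probe sets and ran from 0.057 to 0.17 when single arrays were left out. Its range was 0.066 to 0.17 in the miR-483-3p comparison and -0.012 to 0.11 between the arms. A replicate block, first arrays against repeats, changed no call and left the medians at 0.16, 0.066 and 0.027, with 8 members at an unadjusted p under 0.05 for miR-483-5p, where 2003 of 14592 genes were, against 1563 without the block. The labels tie the repeats to each other by position alone. Deviations of the first miR-483-5p and first control arrays from their group means correlated at 0.17 over genes. Some genes ran alike in both pairs. The chaperone list above had a lower median in the first array than in the repeat of either pair. In the brightest probe set of SLC7A11 the first array was the higher in both.

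Signs turned in some members. Against the control with miR-483-5p, the mean of probe sets gave -0.028 for SLC7A1 and -0.085 for EPRS1, and median centring gave 0.0060 for ATF5 and 0.033 for TRIB3. With miR-483-3p, median centring gave 0.0077 for STC2, and the mean of probe sets gave 0.034 for WARS1 and -0.0057 for EPRS1. Between the arms the mean of probe sets gave -0.012 for ALDH1L2 and -0.17 for SLC7A1. Leaving out single arrays gave ranges that crossed 0 for miR-483-5p in ATF5 (-0.068 to 0.011), DDIT3 (-0.025 to 0.33), TRIB3 (-0.17 to 0.16), VLDLR (-0.051 to 0.47), EIF4EBP1 (-0.055 to 0.18) and GARS1 (-0.13 to 0.029), for miR-483-3p in ATF4 (-0.028 to 0.15), DDIT3 (-0.14 to 0.21), CHAC1 (-0.16 to 0.27), FGF21 (-0.23 to 0.25), VLDLR (-0.20 to 0.32) and GARS1 (-0.15 to 0.0013), and between the arms in SHMT2 (-0.31 to 0.018), ALDH1L2 (-0.10 to 0.14), SLC3A2 (-0.20 to 0.16), SLC1A5 (-0.17 to 0.14), CEBPG (-0.049 to 0.24), DDIT3 (-0.0043 to 0.24), EIF4EBP1 (-0.12 to 0.11), GARS1 (-0.049 to 0.10) and EPRS1 (-0.015 to 0.0086). These ranges cover the members taken by the naming rule. Of the others, PSPH, AARS1, NARS1 and ATF3 crossed 0 with both mimics, and SARS1, SLC7A11 and SLC1A4 with miR-483-3p, by their values in single arrays. The cause was not tested. Dim signals have no known distance from background.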
